A study of Homo sapiens with 12 samples.

Results

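Keratins are the intermediate filament proteins of epithelial cells, and 7 keratins of simple, single-layered epithelium were taken from the 58302 genes of the authors' input table by their symbols. The type II members were KRT8, KRT7 and KRT80, and the type I members were KRT18, KRT19, KRT20 and KRT23. The members were selected on their input FPKM values in these same 6 libraries, so levels and differences of the members are given as a description, and no test of them is used as support.

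The cells were DLD1, an established line of human colorectal cancer, at passage 5. One group carried a short hairpin RNA called shNAT10, aimed at the mRNA of NAT10, the acetyltransferase that makes N4-acetylcytidine (ac4C) in RNA. The other group carried the control hairpin shNC. The table held 3 input libraries of each group, made from fragmented total RNA before any pull-down with the ac4C antibody; the pull-down libraries had no column in it and were not analysed here. The labels gave no hairpin sequence, clone or culture for a replicate, so the spread between replicates may be technical.

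A keratin filament is built from heterodimers, each of a type I (acidic) and a type II (basic) chain, so an epithelial cell makes at least one chain of each type. KRT8 and KRT18 are the first pair of the embryo and the main pair of simple epithelia such as liver, pancreas and gut. KRT19 is a short type I chain that also pairs with KRT8, and KRT20 is a type I chain of differentiated gut epithelium and urothelium. KRT7 is a type II chain of ducts and glands, and KRT80 and KRT23 are less abundant members. A chain without a partner is degraded, so the balance of the types is set partly at the protein level, which was not measured here.

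In RefSeq (GRCh38.p14) the type II genes KRT80, KRT7 and KRT8 lie on chromosome 12 at chr12:52168996-52192014, chr12:52233243-52255853 and chr12:52897191-52949860. KRT18 is the type I gene that lies beside them, at chr12:52948855-52952906, and its RefSeq span overlaps that of KRT8 by 1006 bases. The sources used here do not say whether reads were counted by strand, so in that stretch the reads of both genes cannot be told apart. KRT20, KRT23 and KRT19 lie on chromosome 17 at chr17:40875889-40885242, chr17:40922700-40937646 and chr17:41523617-41528308.

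RefSeq's promoter table held 2 of the 7 members, KRT8, the most abundant keratin here, and KRT20, listed at 0 in 5 of the libraries. Both windows are shown so that the upstream sequences of a highly and a barely recorded member can be read side by side. Each runs from 250 bases before to 50 bases after the table's start of the gene, on the minus strand. The KRT8 window is chr12:52926420-52926719, inside the RefSeq span of the gene and away from its upper end at 52949860. The KRT20 window is chr17:40885193-40885492 and takes in the upper end of the KRT20 span, at 40885242. Whether the KRT8 RNA counted here began at the start in this window was not tested. Capitals mark matches to any of 4 motifs, sought on both strands.
KRT8: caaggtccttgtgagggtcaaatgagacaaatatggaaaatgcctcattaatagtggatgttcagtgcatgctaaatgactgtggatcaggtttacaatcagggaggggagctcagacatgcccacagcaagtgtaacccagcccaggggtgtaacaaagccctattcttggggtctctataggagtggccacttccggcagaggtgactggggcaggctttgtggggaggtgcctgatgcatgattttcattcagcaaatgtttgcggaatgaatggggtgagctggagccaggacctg
KRT20: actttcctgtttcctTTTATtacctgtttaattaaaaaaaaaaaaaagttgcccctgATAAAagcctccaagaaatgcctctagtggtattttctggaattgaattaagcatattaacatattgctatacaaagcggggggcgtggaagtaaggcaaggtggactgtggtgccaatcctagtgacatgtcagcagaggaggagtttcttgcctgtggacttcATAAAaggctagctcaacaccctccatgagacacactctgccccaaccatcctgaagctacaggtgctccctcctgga
The motifs were the TATA box (TATAAA), the GC box (GGGCGG), the AP-1 site (TGANTCA) and the core of sites for the gut factors CDX1 and CDX2 (TTTAT), which overlaps the reverse complement of the TATA box. They occurred in 12.0%, 44.6%, 7.76% and 35.8% of 27305 promoter windows of this length. The KRT20 window held 3 matches, all to TTTAT or its reverse complement ATAAA, and the last began 28 bases before the start. The KRT8 window held 0 matches. These are matches of letters and say nothing of binding.

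Library depth differed between the groups. Whole fragments recovered from the FPKM values (fragments divided by the length of the gene and the size of the library) numbered 1223769 to 1301583 per library labelled shNAT10 and 2630384 to 2745610 per shNC library. Dropout was heavy: 47.5% of genes that reached 100 fragments in some library labelled shNAT10 stood at 0 in another replicate. In shNC 43.0% did so. Across genes with a mean of at least 1 FPKM, log2(FPKM + 1) correlated at 0.38 to 0.41 between libraries labelled shNAT10. The correlation was 0.39 between shNC libraries and 0.37 to 0.40 between groups. Replicates were thus hardly more alike than libraries of different groups. NAT10 itself was listed at FPKM 0, 28.1 and 31.4 in the libraries labelled shNAT10, against 1.24, 3.95 and 2.89 in shNC. So 2 of the 3 libraries labelled shNAT10 were above every shNC library, which goes against the label. Replicate 1 with that label, at 0, was below every shNC library. The NAT10 difference on log2(FPKM + 1), shNAT10 label minus shNC, was 1.48 (SE 1.86, interval -2.18 to 5.15). It did not pass in the limma fit described below (adjusted p = 0.754). Its sign reversed, to -0.23, with 0.01 added in place of 1. The direction of NAT10 was thus not resolved, and these values do not settle whether the label holds. Every direction below is therefore that of the label.

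Only 3 of the 7 members were above 0 in all 6 libraries, the type II chain KRT8 and the type I chains KRT18 and KRT19. KRT7, KRT80 and KRT23 were listed at 0 in all 6 libraries. KRT20 had 0 FPKM in each library labelled shNAT10, and 0, 0 and 0.158 FPKM in shNC, a value that 1 fragment on a gene of 1845 nt gives. Zeros in this table need care, because the housekeeping gene TBP was also listed at 0 in 5 of the libraries, so these members are called listed at 0 and not absent.

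KRT8 (ENSG00000170421), the partner that both type I chains need, was listed at 5643, 5573 and 5866 FPKM in the libraries labelled shNAT10 and at 3112, 3774 and 3294 FPKM in shNC. All 3 libraries labelled shNAT10 were above all 3 of shNC, and the groups were far apart. The means were 5694 ± 153 FPKM with the shNAT10 label and 3393 ± 342 FPKM in shNC (SD, n = 3 each), a ratio of 1.68. For this gene replicates were close, with a coefficient of variation of 2.69% with the shNAT10 label and 10.1% in shNC. These were the lowest and the 10th lowest of the 52 coding genes with a mean of at least 500 FPKM. The medians over these 52 genes were 32.8% with the shNAT10 label and 21.2% in shNC. This closeness depended on the scale: in TPM the KRT8 coefficient was 10.3% with the shNAT10 label, the 6th lowest, and in share of fragments it was 8.27%.

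KRT18 (ENSG00000111057), the classic type I partner of KRT8, was listed at 866, 1148 and 783 FPKM in the libraries labelled shNAT10 and at 668, 311 and 506 FPKM in shNC. The groups did not overlap on this scale, but the closest libraries, shNAT10 replicate 3 and shNC replicate 1, were near each other. The means were 932 ± 191 FPKM with the shNAT10 label and 495 ± 179 FPKM in shNC (SD, n = 3 each), a ratio of 1.88. KRT18 varied most among the 3 abundant members, with a coefficient of variation of 20.5% with the shNAT10 label and 36.1% in shNC. Among the 52 coding genes of at least 500 FPKM these were the 15th and the 42nd lowest.

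KRT19 (ENSG00000171345), the short type I chain, was listed at 1529, 1152 and 1705 FPKM in the libraries labelled shNAT10 and at 1102, 860 and 921 FPKM in shNC. The groups again did not overlap, with shNAT10 replicate 2 just above shNC replicate 1. The means were 1462 ± 282 FPKM with the shNAT10 label and 961 ± 126 FPKM in shNC (SD, n = 3 each), a ratio of 1.52. In order of level per length, KRT8 came first in every library. KRT19 stood above KRT18 in all 6, but in shNAT10 replicate 2 the levels of KRT19 and KRT18 were nearly equal, at 1152 and 1148 FPKM.

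**Figure D1:**
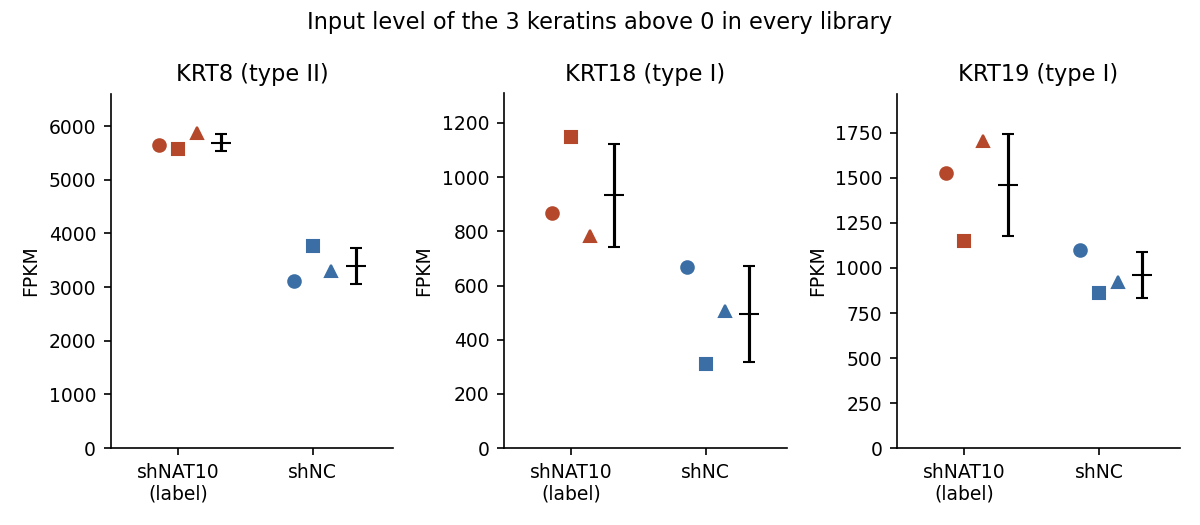
FPKM of KRT8, KRT18 and KRT19 in the libraries labelled shNAT10 (left, red) and in shNC (right, blue), each axis starting at 0. Circles, squares and triangles are replicates 1, 2 and 3, and the black mark is the mean with its SD (n = 3). KRT8 spans 5573 to 5866 FPKM with the shNAT10 label and 3112 to 3774 FPKM in shNC, while the KRT18 and KRT19 groups lie closer together.

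Among protein-coding genes, KRT8 ranked 2nd by FPKM in each library labelled shNAT10 and 5th in each shNC library. By group mean KRT19 ranked 17 with the shNAT10 label and 21 in shNC, and KRT18 ranked 31 with the shNAT10 label and 44 in shNC. KRT8 alone took 53955, 57453 and 48350 fragments in the libraries labelled shNAT10, which were 4.15%, 4.63% and 3.95% of their fragments. In shNC it took 72436, 85301 and 77681 fragments, or 2.64%, 3.24% and 2.87%. Wilson 95% intervals of these shares were 3.92% to 3.99% for the lowest library labelled shNAT10 and 3.22% to 3.26% for the highest shNC library. They cover counting error only, since PCR copies were not marked by molecular identifiers, and they take the approximate recovered totals as exact. Together the 3 chains took 4.82%, 5.40% and 4.59% of fragments with the shNAT10 label and 3.22%, 3.62% and 3.35% in shNC.

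The FPKM scale itself differed between groups. FPKM summed over all genes to 556564 to 712302 in the libraries labelled shNAT10 and to 468920 to 532596 in shNC. The authors' denominator was 0.979 to 1.21 times the recovered fragments in the libraries labelled shNAT10 and 1.23 to 1.27 times in shNC. The recovered totals are approximate, so these multiples and the shares of fragments are approximate too. Rescaled to TPM, in which every library has the same sum, KRT8 was at 9764, 10013 and 8235 with the shNAT10 label and at 6010, 7086 and 7025 in shNC. KRT8 groups thus stayed apart in FPKM, TPM and share of fragments, with ratios of means of 1.68, 1.39 and 1.45. In TPM, 39 of the 584 genes with a mean of at least 100 FPKM lay apart with the shNAT10 label higher. No such count was made in share of fragments. KRT18 groups overlapped in TPM (1499, 2063 and 1100 with the shNAT10 label against 1290, 585 and 1078 in shNC) and in share of fragments. KRT19 groups overlapped in TPM (2645, 2069 and 2393 with the shNAT10 label against 2128, 1615 and 1964 in shNC) and not in share of fragments.

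The limma fit over all 10517 genes with a mean of at least 1 FPKM held 3 members, and the other 4 fell below that filter. The log2 difference, libraries labelled shNAT10 minus shNC on log2(FPKM + 1), was 0.75 for KRT8 (SE 0.25, 95% interval 0.25 to 1.25). It was 0.96 for KRT18 (SE 0.57, interval -0.16 to 2.08) and 0.59 for KRT19 (SE 0.45, interval -0.29 to 1.48). After Benjamini-Hochberg adjustment at 0.05, none of the 3 members passed (limma adjusted p = 0.598 for KRT8 and 0.754 for the other two), where 20 genes in all, or 0.19%, passed. At an unadjusted p under 0.05 stood 1 of the 3, KRT8, and 389 genes in all. Groups did not overlap, with the shNAT10 label higher, for 3 of the 3 members, for 2.89% of all genes tested and for 11.6% of the 584 genes with a mean of at least 100 FPKM, a level chosen after the data were seen. Since the members were picked with these values known, nothing is read from those counts.

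The differences also depend on the scale. The median log2 difference was -0.49 over all genes tested and 0.19 over the 584 genes of at least 100 FPKM, opposite in sign. Under TPM scaling the median of all genes moved to -0.74, and the differences were 0.48 for KRT8, 0.69 for KRT18 and 0.32 for KRT19. Measured from the median of all genes they were 1.24, 1.45 and 1.08 in FPKM and 1.21, 1.43 and 1.06 in TPM. These distances depend on the genes taken: the median was -0.20 over genes with a mean of at least 5 FPKM. From the 0.19 of the genes of at least 100 FPKM, nearer the level of the keratins, the FPKM distances would be smaller. After quantile normalization, with the median of all genes at -0.08, the differences were 0.50 for KRT8, 0.57 for KRT18 and 0.21 for KRT19. Measured from that median they were 0.58, 0.65 and 0.29. All 3 were above 0 in each of the 17 alternative settings.

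**Figure D2:**
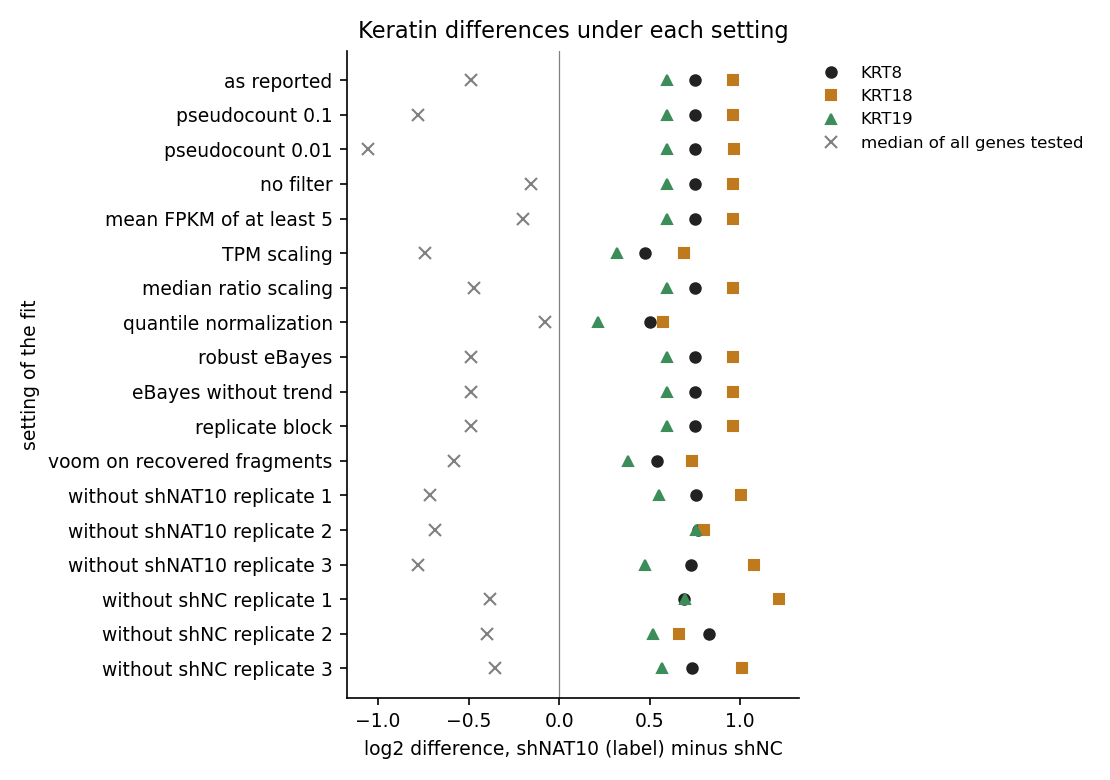
Log2 difference (horizontal axis, libraries labelled shNAT10 minus shNC) of KRT8 (circles), KRT18 (squares) and KRT19 (triangles) in the reported fit and 17 alternatives, 1 per line, with crosses at the median of all genes tested. All keratin points lie above 0; the lowest is KRT19 after quantile normalization at 0.21, and KRT8 spans 0.48 to 0.83.

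The 2 types were then summed within each library. Library scaling cancels in the ratios between types given further below, but not in these sums. Summed, the type I chains were at 2395, 2300 and 2488 FPKM in the libraries labelled shNAT10 and at 1770, 1172 and 1427 FPKM in shNC. These sums did not overlap between groups in FPKM, in TPM or in share of fragments, although KRT18 or KRT19 alone did on some scales. In TPM the nearest libraries were close, at 3493 with the shNAT10 label and 3418 in shNC. How often like sums of other genes lie apart was not counted. The members were picked with these values known, so nothing is read from the lack of overlap. The sum of all 7 members was 8037, 7872 and 8354 FPKM with the shNAT10 label and 4881, 4946 and 4721 FPKM in shNC. The means were 8088 ± 245 FPKM and 4849 ± 116 FPKM in the same order (SD, n = 3 each). In shNC this sum varied less than the type I sum, with coefficients of variation of 2.39% and 20.6% in FPKM and 4.34% and 21.6% in TPM. With the shNAT10 label the coefficients were near each other, at 3.02% and 3.93% in FPKM and 10.0% and 9.50% in TPM.

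**Figure D3:**
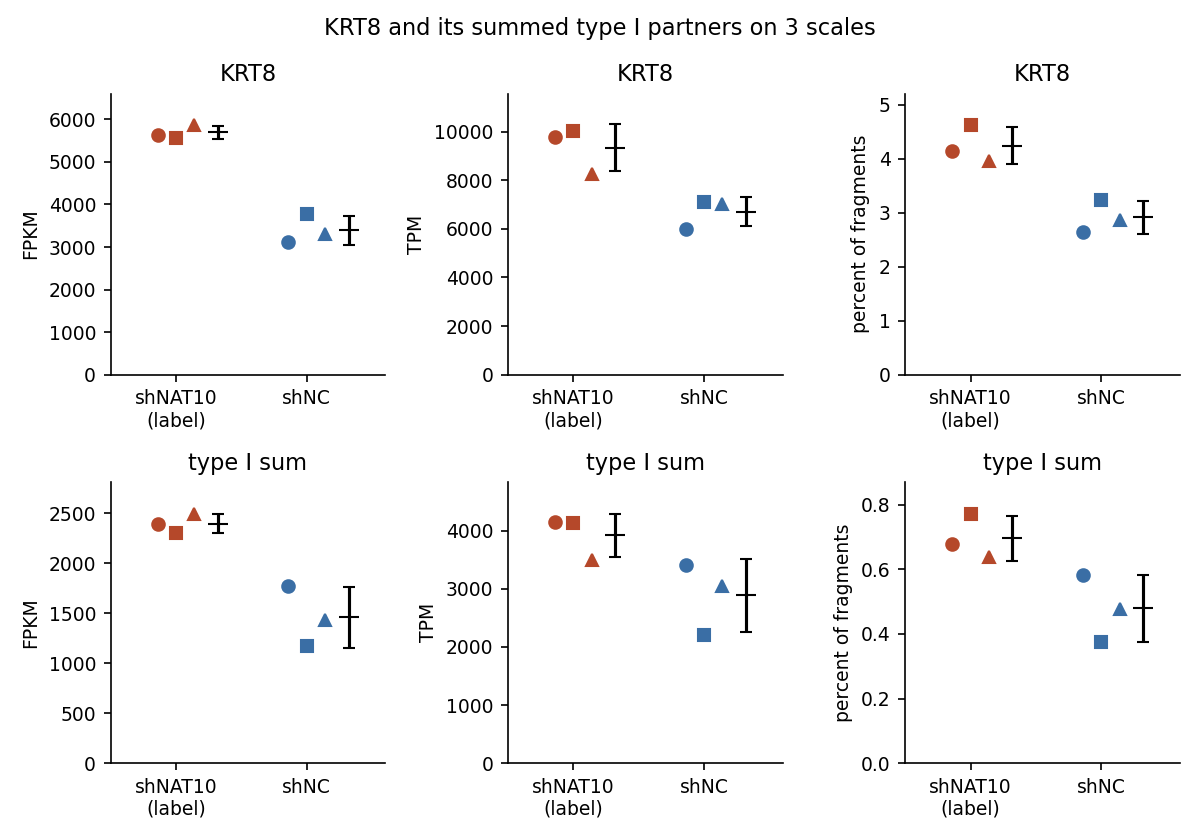
KRT8 (upper row) and the summed type I chains (lower row) in FPKM, TPM and percent of fragments, with the libraries labelled shNAT10 at left (red), shNC at right (blue), replicates 1, 2 and 3 as circles, squares and triangles, and mean ± SD in black (n = 3). No group overlaps in any of the 6 panels, and the gap is narrowest for the type I sum in TPM, at 3493 against 3418.

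Type II over type I, as a ratio of summed FPKM, was 2.36, 2.42 and 2.36 in the libraries labelled shNAT10 and 1.76, 3.22 and 2.31 in shNC. On the log2 scale the ratio averaged 1.25 ± 0.02 with the shNAT10 label and 1.24 ± 0.44 in shNC (SD, n = 3 each), a difference of 0.01. The libraries labelled shNAT10 lay inside the range of shNC, so the average balance differed by far less than the spread in shNC. In shNC the extremes were replicate 2, with the highest KRT8 and the lowest KRT18 and KRT19, and replicate 1, with the reverse for all 3. Leaving out shNC replicate 1 gave a difference of -0.20, and leaving out shNC replicate 2 gave 0.24, so its sign rests on single shNC libraries.

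KRT8 over KRT18 was 6.52, 4.85 and 7.49 in the libraries labelled shNAT10 and 4.66, 12.1 and 6.52 in shNC. The mean log2 ratio was 2.63 ± 0.32 with the shNAT10 label and 2.84 ± 0.70 in shNC (SD, n = 3 each), a difference of -0.21 that was smaller than either SD. Without shNC replicate 2 the difference was 0.17, without shNC replicate 1 it was -0.52, and without shNAT10 replicate 2 or 3 it was -0.04 or -0.35. KRT8 over KRT19 was 3.69, 4.84 and 3.44 with the shNAT10 label and 2.82, 4.39 and 3.58 in shNC, also with overlapping groups. Between the type I chains, KRT18 over KRT19 was 0.567, 0.997 and 0.459 with the shNAT10 label and 0.606, 0.362 and 0.549 in shNC. In shNAT10 replicate 2 the highest KRT18 of the group stood beside its lowest KRT19, and the summed type I level there was 2300 FPKM, close to the other replicates.

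The size of a ratio between genes depends on the length each was divided by. The smallest lengths that made the FPKM values whole fragments were 6881 nt for KRT8, 3218 nt for KRT18 and 2336 nt for KRT19. A difference in a ratio between libraries does not depend on these lengths.

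**Figure D4:**
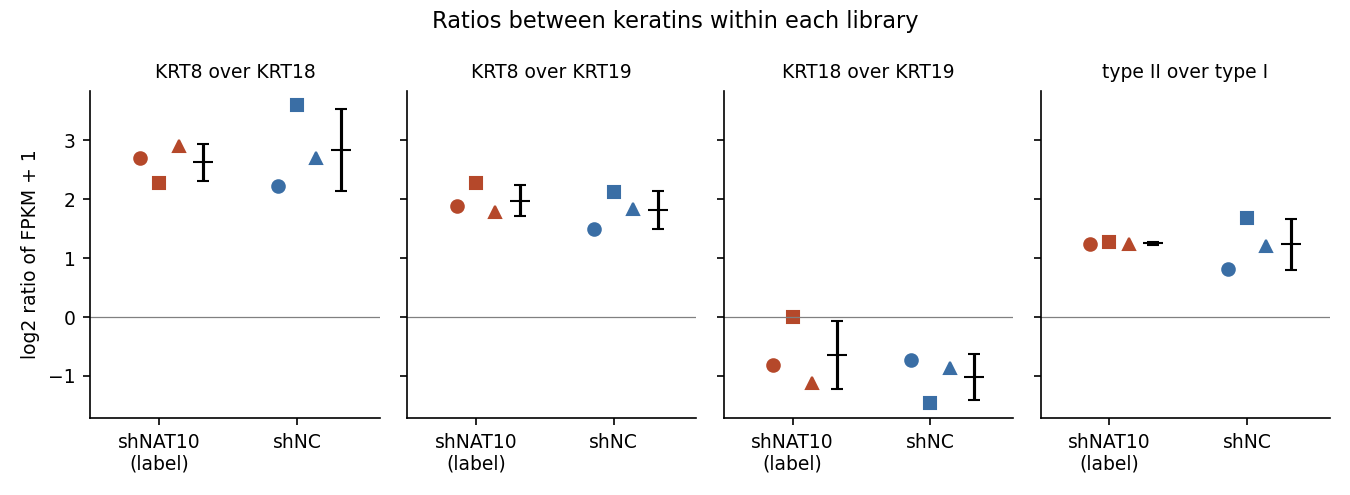
Log2 ratio of FPKM + 1 within each library (vertical axis) for 3 pairs of keratins and for summed type II over summed type I, libraries labelled shNAT10 at left (red) and shNC at right (blue), replicates 1, 2 and 3 as circles, squares and triangles, mean ± SD in black (n = 3). All groups overlap, and type II over type I spans 1.24 to 1.28 with the shNAT10 label and 0.81 to 1.69 in shNC.

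KRT8 and KRT18 have many processed pseudogenes, near-copies of their mRNAs elsewhere in the genome that can take reads from the parent gene. The table held 50 rows named as KRT8 pseudogenes, 67 as KRT18 pseudogenes and 5 as KRT19 pseudogenes, of which 12, 2 and 0 were above 0 in any library. KRT8P3, the most abundant, was at 11.9, 9.21 and 6.91 FPKM in the libraries labelled shNAT10 and at 6.12, 3.99 and 4.43 FPKM in shNC, from 12 to 30 fragments a library. Its groups did not overlap in FPKM. In share of fragments they did, with 12 of 1223769 in shNAT10 replicate 3 against 30 of 2745610 in shNC replicate 1. The reads of KRT8P3 may stem from either locus. KRT18P7 was at 14.2 FPKM in shNAT10 replicate 1 and at 0 elsewhere. The mean of KRT8P45 was 0.528 FPKM, that of KRT8P33 0.426 and that of KRT8P24 0.293. Summed over its pseudogenes, KRT8 had 0.174% to 0.245% of its own FPKM beside it with the shNAT10 label and 0.133% to 0.255% in shNC. KRT18 had 1.77% of its own FPKM beside it in shNAT10 replicate 1 and 0 in the other libraries. With the pseudogenes of both genes added, the difference in the log2 ratio of KRT8 to KRT18 was -0.22.

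Keratins outside the set were few. Of 55 keratin genes in the table, 8 were above 0 in any library and 3 in all 6. KRT8, KRT18 and KRT19 made up 99.5% to 100.0% of all keratin FPKM in the libraries labelled shNAT10 and 98.6% to 99.9% in shNC. Among 20 keratins of stratified epithelium, 3 were above 0. KRT4, a type II chain of wet stratified epithelium, was at 43.7, 0 and 5.04 FPKM with the shNAT10 label and at 1.34, 3.68 and 25.6 FPKM in shNC. The type I chain KRT10 of the upper epidermis was at 4.27 FPKM in shNC replicate 1 and at 0 elsewhere, and KRT13 did not exceed 0.101 FPKM. Among 26 hair and follicle keratins KRT86 alone was above 0, at 0, 1.67 and 37.0 FPKM with the shNAT10 label and at 0.988, 32.6 and 38.9 FPKM in shNC. Both KRT4 and KRT86 swung more widely between replicates of a group than the abundant members, at far lower levels. KRT18 also varied, from 311 to 668 FPKM in shNC.

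No deposited ac4C peak lay in any of the 7 members or in their pseudogenes. The authors' deposited table lists only peaks that differed between the hairpins, with a largest FDR of 0.0501, so it does not tell whether keratin mRNA carried ac4C. Peaks of that kind lay in 54 of the 223 coding genes with a mean of at least 100 FPKM and in 8 of the 36 coding genes at or above the mean of KRT18. The 1 keratin in the authors' deposited table was KRT4, with a peak in coding sequence at chr12:52811858-52813805 (GRCh38, minus strand, in 2 blocks). Its deposited fold was 171, its deposited log2 change -6.23, and it held 7 sites of the repeated CXX motif. Which hairpin was the numerator of that change was not stated.

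Keratin filaments are tied to the cell surface and to each other by linker proteins, and 20 of 23 such genes were abundant enough to test. None passed (limma, smallest adjusted p = 0.754; 1 at an unadjusted p under 0.05), where 0.19% of all genes did. Their median log2 difference was 0.15, with 11 above 0 and 9 below, beside -0.49 over all genes. The sign of the linker median was not stable: it was -0.12 in TPM, -0.02 after quantile normalization and -0.04 by voom. It was also below 0 without shNAT10 replicate 1 (-0.42), shNAT10 replicate 2 (-0.15) or shNC replicate 2 (-0.24), and it was 0.41 without shNAT10 replicate 3. PLEC, the plakin that links keratins to hemidesmosomes, was at 62.4, 13.1 and 51.1 FPKM in the libraries labelled shNAT10 and at 39.7, 29.1 and 31.1 FPKM in shNC. FAM83H, which recruits casein kinase to keratin filaments, was at 71.7, 52.2 and 44.9 FPKM with the shNAT10 label and at 18.9, 7.27 and 19.7 FPKM in shNC. FAM83H groups did not overlap, but the gene did not pass, at a difference of 1.90 with an SE of 1.49 (limma adjusted p = 0.754). Of the 20 linker genes tested, groups lay apart and higher with the shNAT10 label for 2, and apart and lower for 3. Of all 10517 genes tested, 304 and 707 did so. The most abundant linker genes, the 14-3-3 protein YWHAE and the desmosomal protein PERP, differed by 0.22 (SE 1.13) and 2.86 (SE 1.57), with overlapping groups.

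Of the linker genes, 7 of 23 (30.4%) carried 12 deposited peak rows, 2 of them the same EPPK1 peak shifted by 1 base, against 19.1% of all coding genes tested, a difference that was not tested. DSP, or desmoplakin, which anchors keratins at desmosomes, had 4 coding-sequence peaks in the authors' deposited table. Their deposited log2 changes were -3.81, -4.28, 2.72 and 5.11, so they ran both ways within 1 transcript. The first lay at chr6:7575395-7576410 and the last at chr6:7584172-7584471. ITGB4, the integrin chain of hemidesmosomes, had 2 coding peaks, with deposited changes of -3.03 and -5.20. DSG2, the desmoglein of simple epithelia, had 1 at chr18:31546048-31546227, with a deposited fold of 92.2 and change of 7.52. DST, EPPK1, PPL and YWHAE carried the others, each with a negative deposited change. Input levels of these genes did not pass the test. DSP was at 54.8, 38.4 and 7.11 FPKM with the shNAT10 label and at 58.6, 23.8 and 25.5 FPKM in shNC.

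Enzymes and chaperones that act on simple keratins (kinases, the transglutaminase TGM2 and others) gave 15 of 19 genes to the test. None passed (limma, smallest adjusted p = 0.754, with 0 at an unadjusted p under 0.05), where 0.19% of all genes did. The median log2 difference was 0.56, with 10 above 0 and 5 below, beside -0.49 over all genes. It moved to 0.20 without shNAT10 replicate 1, 0.21 without shNAT10 replicate 2 and 0.88 without shNAT10 replicate 3, and it was 0.38 in TPM and 0.87 after quantile normalization. STUB1, a ubiquitin ligase that works with heat-shock chaperones, was at 688, 157 and 344 FPKM in the libraries labelled shNAT10 and at 172, 298 and 225 FPKM in shNC. HSPA8, a constitutive chaperone, was at 212, 103 and 234 FPKM with the shNAT10 label and at 121, 120 and 120 FPKM in shNC. MAPK3 and AKT1, both kinases, differed by 0.45 (SE 1.76) and 0.81 (SE 1.71). Peaks of the authors' deposited table lay in 9 of the 19 genes (47.4%, against 19.1% of all coding genes tested, a difference that was not tested), among them AKT1, HSPA8, MAPK3, PIAS1, PPP2CA, PRKCE and STUB1. The 9 genes held 9 peaks in all, with 5 positive and 4 negative deposited changes.

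Other intermediate filaments were the lamins of the nucleus and the filaments of non-epithelial cells, and 6 of 14 were tested, none past the test (limma, smallest adjusted p = 0.754; 0 at an unadjusted p under 0.05). LMNB2, a B-type lamin, was at 83.9, 137 and 37.5 FPKM with the shNAT10 label and at 125, 30.9 and 40.5 FPKM in shNC, and LMNA was at 22.8, 13.2 and 61.7 FPKM with the shNAT10 label and at 28.1, 16.7 and 39.0 FPKM in shNC. VIM, the filament of mesenchymal cells, was at 0, 0.129 and 78.0 FPKM in the libraries labelled shNAT10 and at 0, 1.12 and 6.34 FPKM in shNC. It was thus high in 1 library. SYNC, which binds desmin in muscle, differed by -1.05 (SE 1.77). LMNA, LMNB1, LMNB2 and VIM carried 6 deposited peaks, and the VIM peak lay in the 3' UTR at chr10:17237353-17237533 with a deposited fold of 150.

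Of 22 genes of colonic epithelium, 14 were tested and none passed (limma, smallest adjusted p = 0.754; 0 at an unadjusted p under 0.05). Their median log2 difference was -0.55, beside -0.49 over all genes, with 4 above 0 and 10 below. Without shNAT10 replicate 3 it was 0.31, with the median of all genes at -0.78. It was -0.28 without shNC replicate 1 or 3, -0.83 without shNAT10 replicate 2 and -0.96 without shNC replicate 2, and it was -0.91 in TPM and -0.20 after quantile normalization. EPCAM, an epithelial adhesion molecule, was at 38.3, 80.3 and 128 FPKM in the libraries labelled shNAT10 and at 226, 370 and 262 FPKM in shNC, with groups that did not overlap. Its difference was -1.92, with an SE of 0.98 and a limma adjusted p of 0.754. Of the 14 genes tested, groups lay apart and lower with the shNAT10 label for 2, and apart and higher for 0. Of all 10517 genes tested, 707 and 304 did so. CDH1, the cadherin of epithelial junctions, was at 78.6, 50.8 and 66.4 FPKM with the shNAT10 label and at 70.7, 39.5 and 24.5 FPKM in shNC. KLF5 and LGALS4 differed by -2.06 (SE 1.47) and -0.39 (SE 1.73). KLF5 and CDX2 each carried 1 deposited peak, both with a negative deposited change. The summed level of the list was 266 to 356 FPKM with the shNAT10 label and 451 to 615 FPKM in shNC. EPCAM made up most of that gap: without it the sums were 318, 186 and 137 FPKM with the shNAT10 label and 225, 178 and 353 FPKM in shNC, and the groups overlapped.

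Markers of other cell types were low, except TAGLN and ACTA2 in single libraries. TAGLN was at 68.9, 2.04 and 1.49 FPKM with the shNAT10 label and at 0 in each shNC library. ACTA2 was at 0, 22.0 and 1.40 FPKM with the shNAT10 label and at 3.67, 0 and 0 FPKM in shNC. Fibroblast and muscle markers, led by TAGLN and ACTA2, summed to 9.62 to 68.9 FPKM with the shNAT10 label and to 0 to 3.81 FPKM in shNC, with 2 of 7 tested and none past the test (limma, smallest adjusted p = 0.754). The 5 leukocyte markers and the 4 endothelial markers did not exceed a sum of 1.44 FPKM in any library labelled shNAT10 and were listed at 0 in shNC. Neural and keratinocyte markers were listed at 0 with the shNAT10 label and summed to at most 3.29 and 4.27 FPKM in a shNC library, with KRT5, KRT14, KRT1 and TP63 at 0 in all 6. All libraries were labelled as the DLD1 line, and the source of these marker reads was not tested.

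Last, the genes whose profile over the 6 libraries came closest to KRT8 and KRT18 were sought among 439 genes above 0 in all libraries with a mean of at least 100 FPKM. Likeness was the root mean square distance between centred log2(FPKM + 1) profiles, a description with no test. Nearest to KRT8 were the lincRNA AC139769.2 (0.11), the antisense RNAs AL662797.1 (0.19) and AC016888.1 (0.24), the pseudogene HCG4P5 (0.25) and the antisense RNA AC011603.2 (0.25). KRT19 came 6th from KRT8, also at 0.25, and KRT18 came 68th at 0.46. Nearest to KRT18 were the antisense RNAs AC109322.1 (0.22) and RUSC1-AS1 (0.25), the nuclear RNA MALAT1 (0.29), JMJD8 (0.30) and the ribosomal protein gene RPSA (0.30). KRT8 came 26th from KRT18. By this measure the KRT8 profile lay closer to that of KRT19 than to that of its classic partner KRT18. The measure takes in the gap between groups as well as the replicates. Replicates of KRT8 and KRT19 ranked in the same order with the shNAT10 label and in reverse order in shNC.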

How the data were processed

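The members and the gene lists were chosen with earlier results of these data known. The authors deposited gene levels in FPKM for 6 input libraries; columns named NC were matched to shNC by title, and columns named sh to shNAT10 by elimination. Per the submitters' processing notes, cutadapt 2.5, HISAT2 2.1.0 and HOMER 4.10.4 were used, with no role stated, and GRCh38 and GRCm38 were named; the sources used here name no counting tool, annotation or peak caller. Per the file headers, the deposited peak table holds a fold ratio, a p-value of the peak call, log2 changes, log10 scores of p and FDR, and a count of motif sites, without stating the direction.

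Whole fragments were recovered as the smallest gene length that made all values whole within 0.001 fragments; shortest lengths sought were 500 nt for coding genes, 200 nt for lincRNAs and antisense RNAs and 20 nt for others, so totals are approximate. Of 13 mitochondrial mRNA lengths, 10 equalled RefSeq. limma 3.58.1 in R 4.3.3 (lmFit, eBayes with trend) compared log2(FPKM + 1) over all genes with a mean of at least 1 FPKM, with Benjamini-Hochberg adjustment; 20 of 10517 genes passed (9 higher and 11 lower with the shNAT10 label, against 7 and 14 in TPM, 9 and 7 with library scaling by median ratios, and 7 and 16 once quantiles were equalized). Its SE draws mostly on genes of like level. The fit was tested on simulated data. Named genes were all members, NAT10, the 5 most abundant pseudogenes, the 4 most abundant members of each list, list genes with a peak and the 5 nearest profiles of KRT8 and KRT18. Some list genes with a peak are not reported here. Alternatives changed pseudocount, filter, scaling, variance model, replicate block and unit, or left out 1 library. Deviations of libraries of the same replicate number correlated at 0.00, -0.02 and 0.01 across genes.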

Additional observations from a re-analysis of the deposited data

How the results depend on the processing

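The count of members past the test was 0 in all 17 alternatives, as it was for the linker, modifier and colonic epithelial genes, and for the other intermediate filaments taken with the stratified and hair keratins (8 tested). The KRT8, KRT18 and KRT19 differences kept their sign in all 17, with limma adjusted p from 0.191 (KRT8, pseudocount 0.1) to 1. With a library left out they ran from 0.69 to 0.83 for KRT8, 0.66 to 1.21 for KRT18 and 0.47 to 0.76 for KRT19. The KRT8 to KRT18 log2 ratio difference ran from -0.52 to 0.17 and the type II to type I difference from -0.20 to 0.24 with a library left out; other alternatives gave -0.22 to -0.21 and 0.01. Of all genes, 20 passed as reported; 7 passed with a pseudocount of 0.01, 10 at a mean of at least 5 FPKM, 1 by voom on recovered fragments, and 0 with no filter or with eBayes without trend (340 and 480 at an unadjusted p under 0.05), and 1 to 34 with a library left out. By library, 12 passed without shNAT10 replicate 1, 34 without shNAT10 replicate 2 and 1 without any one shNC replicate; the cause was not tested. With the replicate block 21 genes passed, the KRT8 difference stayed 0.75 (limma adjusted p = 0.422), the ratio differences stayed -0.21 and 0.01, and no call on the lists changed. The NAT10 difference was 1.48 as reported and -0.23 with a pseudocount of 0.01; the cause was not tested. Depth limits the rare members: 1 fragment decides whether KRT20 is above 0.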
